A study of Homo sapiens with 4 samples.

Results

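The genes described here encode the subunits of the 5 oxidative phosphorylation complexes, with some of their assembly factors. They were chosen by symbol from a deposited table of 20372 genes, as the protein-coding genes whose symbol begins with NDUF, UQCR, ATP5 or COX followed by a digit from 4 to 8, together with SDHA to SDHD. The rule found 101 of the 20356 protein-coding genes, namely 49 for complex I, 5 for complex II, 9 for complex III, 18 for complex IV and 20 for complex V. The choice used no expression value.

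RNA was sequenced from TPC1 cells, a line of human papillary thyroid carcinoma cells with a CCDC6-RET fusion, after treatment with BLU6864, a selective RET kinase inhibitor. Cells were exposed for 6 h or for 24 h, with 2 libraries at each time, and all were grown in DMEM with 10% FBS. The comparison was made to describe expression as adaptive resistance to the inhibitor develops. The labels give a dose of 100 µM and the methods of the study give 100 nM, and the labels mark both 24 h libraries as a re-analysis. No vehicle library was analysed here, so every difference below is between 24 h and 6 h libraries of 1 cell line. Since the re-analysis label follows time, duration of treatment and whatever that label marks cannot be told apart. Total counts were between 23917056 and 27457040 per library. PAX8, a thyroid transcription factor, had 19124 to 22978 counts per library, whereas NKX2-1 and TSHR, which also mark thyroid follicular cells, were listed at 0. Among epithelial markers, KRT7 and KRT18 rose (log2 fold changes 0.84 and 0.37), KRT19 fell (-1.59), KRT8 did not pass the test (-0.05), and EPCAM and CDH1 had at most 11 counts. Among mesenchymal markers, COL1A1 and PDGFRB fell (-1.57 and -1.48), LUM rose (0.75), and VIM, with 49821 to 56661 counts, did not pass the test (-0.08). Of the other thyroid markers, TG fell (-1.09) and FOXE1 rose (0.84). The summed level of 6 white blood cell markers was 6.81 to 8.97 normalized counts. Of the 3 endothelial markers, KDR fell from 524 and 496 normalized counts at 6 h to 43.8 and 21.4 at 24 h, VWF fell as well, from 16 and 11 counts to 3 and 5, while CDH5 did not exceed 1 count. The part of these marker changes in the results below was not tested.

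Oxidative phosphorylation takes place in the inner mitochondrial membrane. Complexes I and II pass electrons from NADH and succinate to ubiquinone, complex III passes them on to cytochrome c, and complex IV passes them to oxygen. Complexes I, III and IV pump protons, and complex V, the ATP synthase, makes ATP from the proton gradient. Complex II is encoded wholly in the nucleus, while each of the other complexes joins nuclear subunits with subunits made from mitochondrial DNA. In bulk RNA such as this, fewer cells of a type and less RNA per cell cannot be told apart.

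Promoters of 4 of these genes are shown because nuclear respiratory genes are known to share sites for ETS factors, NRF1 and YY1 near their start sites, and because these genes include both falls and a rise. NDUFAB1 had the largest fall of the 89 genes tested, NDUFA8 had the largest fall among those with an NRF1 match, NDUFAF4 had the largest rise in complex I, and SDHB held all 3 motifs. Each sequence is the RefSeq promoter from the GRCh38.p14 build, 250 bases before the start site and 50 bases from it, written 5′ to 3′ along the gene. Capitals mark the matches to CCGGAAG (ETS), CATGCGC (NRF1) or AAGATGG (YY1) on either strand. All 4 genes lie on the minus strand, with NDUFAB1 at chr16:23596267-23596566, NDUFA8 at chr9:122159730-122160029, NDUFAF4 at chr6:96897842-96898141 and SDHB at chr1:17053983-17054282.
NDUFAB1: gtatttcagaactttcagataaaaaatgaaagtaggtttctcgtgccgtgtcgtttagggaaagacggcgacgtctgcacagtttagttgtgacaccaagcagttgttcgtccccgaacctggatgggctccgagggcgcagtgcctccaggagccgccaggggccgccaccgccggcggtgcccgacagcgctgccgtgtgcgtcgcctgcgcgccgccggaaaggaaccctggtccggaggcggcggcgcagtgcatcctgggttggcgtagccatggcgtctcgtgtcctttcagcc
NDUFA8: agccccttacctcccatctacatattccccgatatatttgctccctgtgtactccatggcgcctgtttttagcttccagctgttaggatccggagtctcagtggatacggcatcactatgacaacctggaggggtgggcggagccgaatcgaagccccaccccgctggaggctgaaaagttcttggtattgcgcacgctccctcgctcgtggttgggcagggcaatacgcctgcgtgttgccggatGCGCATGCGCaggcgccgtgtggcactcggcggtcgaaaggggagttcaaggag
NDUFAF4: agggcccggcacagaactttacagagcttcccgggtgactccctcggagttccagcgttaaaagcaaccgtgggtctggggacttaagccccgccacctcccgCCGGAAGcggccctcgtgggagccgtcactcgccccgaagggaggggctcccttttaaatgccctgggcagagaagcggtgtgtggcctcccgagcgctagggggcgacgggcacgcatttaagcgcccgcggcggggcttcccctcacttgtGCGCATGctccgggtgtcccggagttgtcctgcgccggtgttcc
SDHB: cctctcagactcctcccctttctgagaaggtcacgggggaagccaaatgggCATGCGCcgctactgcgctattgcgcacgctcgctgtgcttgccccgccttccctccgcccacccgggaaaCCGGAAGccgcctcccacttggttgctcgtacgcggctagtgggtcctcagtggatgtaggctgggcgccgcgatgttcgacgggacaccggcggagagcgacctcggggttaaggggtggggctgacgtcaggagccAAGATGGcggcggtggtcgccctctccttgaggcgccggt

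The NDUFAB1 window held none of the 3 motifs. The NDUFA8 window held the NRF1 motif on both strands, overlapping, with the first bases 4 and 1 bases before the start site. In NDUFAF4 the ETS motif began 147 bases before the start site and the NRF1 motif began at base 7, counted from the start site as base 1. In SDHB the NRF1, ETS and YY1 motifs stood in that order. A promoter was matched for 75 of the 101 genes and for 70 of those tested. Of these 70, 57.1% held at least 1 of the motifs, against 30.7% of 10370 tested genes with a promoter. The ETS motif was in 30.0% of the 70 and in 19.5% of all genes, the NRF1 motif in 22.9% and 7.64%, and the YY1 motif in 24.3% and 7.79%. At least 1 motif was in 22 of 33 members that fell, in 3 of 10 that rose and in 15 of 27 that did not pass the test. These are counts of letters in a window, and no difference between them was tested.

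Of the 101 genes, 89 had enough counts to be tested, and the other 12 had at most 9 counts in any library. Comparing 24 h with 6 h, 44 of the 89 fell and 11 rose (edgeR quasi-likelihood test, Benjamini-Hochberg adjusted P under 0.05). These are 49.4% and 12.4% of the members, beside 32.6% of all 12876 genes tested that fell and 33.0% that rose. The median log2 fold change over the 89 was -0.17, with a range of -1.38 to 1.75, while the median over all genes was 0.0029. Changes were mostly small, and with a cutoff of the study's methods (log2 change under -0.5 with P under 0.01 before adjustment), applied here in both directions, 15 fell and 3 rose. The same cutoffs called 17.7% of all genes lower and 17.4% higher, so the 15 lower members, at 16.9%, lay near the background and the 3 higher members, at 3.37%, below it. Both 24 h libraries lay below both 6 h libraries for 51 of the 89 (40.8% of all genes) and above them for 15 (41.0%).

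The libraries were not equally alike, and this touches the counts above. In 6 h replicate 2, the members were higher than in 6 h replicate 1 by a median of 0.12 on the log2 scale, with 70 of 89 higher, while the median over all genes was -0.01. Genes with a transcript under 1000 bases, 721 of those tested, had the same median of 0.12, and 49 of the 89 members have such a transcript. Across the members, this replicate ratio had a Spearman rho of -0.41 with transcript length (n = 89), a description over genes that share the same libraries. The log2 fold change between time points had a rho of 0.15 with length and 0.34 with GC content (0.06 and 0.23 over 12716 genes). Its median was -0.06 over the 721 short genes, with 34.0% lower. It was -0.21 over the 49 short members (51.0% lower) and -0.16 over the 40 longer members (47.5% lower). Without 6 h replicate 2, 34 members fell and 13 rose, and 8 were lower by the cutoffs instead of 15. The background was then 29.2% lower and 29.2% higher, and 16.9% lower by the cutoffs. When the trend of the changes with GC content and with transcript length over 12716 genes was removed, the median over the members was -0.0046, so the shift of the group as a whole was not seen with that correction. Of the 44 genes that fell, 10 then had a value above 0 (ATP5C1, ATP5E, ATP5EP2, ATP5G3, ATP5J, NDUFA12, NDUFB5, NDUFS4, SDHD and UQCRH) and 19 a value over 1.5 times smaller, and of the 11 that rose, none turned and 3 were over 1.5 times smaller (ATP5D, ATP5SL and NDUFV1). No test was run on values with the trend removed. The part of base composition and length in the individual changes was not tested.

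**Figure D1:**
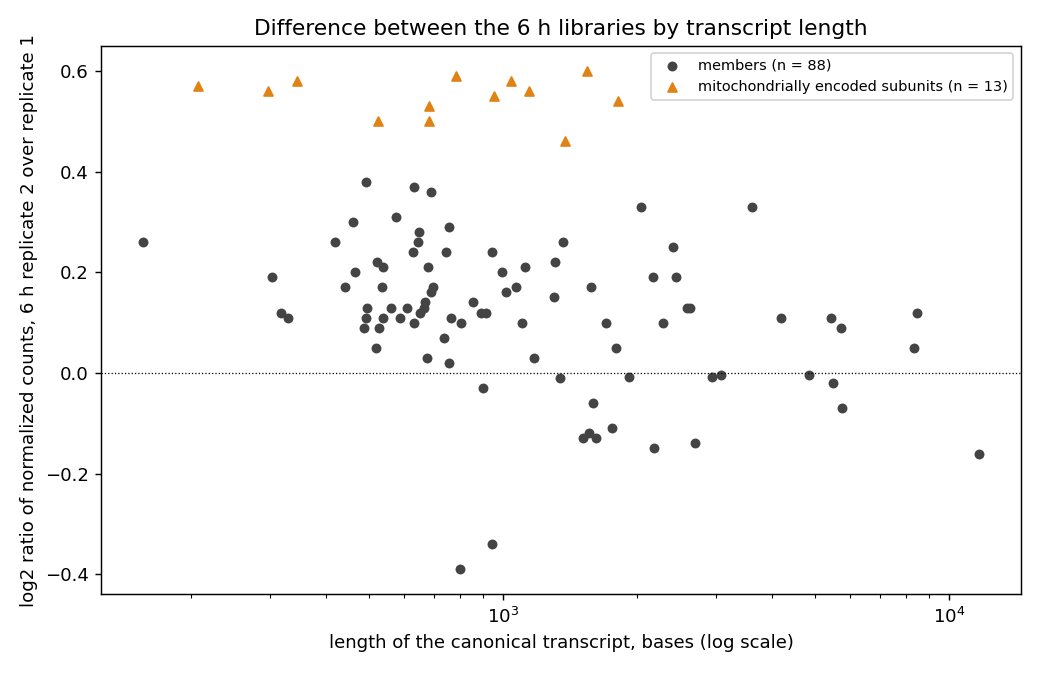
Log2 ratio of normalized counts in 6 h replicate 2 over replicate 1 against transcript length on a log axis, for 88 members (COX6B2, at 8 and 20 counts, is left out) and the 13 subunits encoded in mitochondrial DNA. Most members lie above 0, with a median of 0.12 over the 89 tested, and all 13 mitochondrially encoded subunits lie between 0.46 and 0.60.

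By complex, 23 of 45 tested genes of complex I fell (51.1%, beside 32.6% of all genes) and 6 rose (13.3%, beside 33.0%), with a median log2 fold change of -0.17. In complex II, 2 of 4 fell (50.0%, median -0.17). In complex III, 5 of 8 fell (62.5%, median -0.20), but 2 of 8 without 6 h replicate 2 (median -0.11). In complex IV, 6 of 13 fell (46.2%) and 1 rose (median -0.16, but -0.08 without 24 h replicate 1). In complex V, 8 of 19 fell (42.1%) and 4 rose (21.1%, median -0.13). With only its 15 subunits counted, 7 fell and 3 rose (median -0.15). Complex V had 5 lower and 6 higher (median -0.08) without 6 h replicate 2 and 5 of each without 24 h replicate 1. With the trend on GC content and length removed, the medians were -0.08, 0.04, -0.11, -0.04 and 0.15 for complexes I to V. Differences between complexes were not tested. Before the trend was removed, the range within each complex was wider than the spread of the medians of the complexes.

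**Figure D2:**
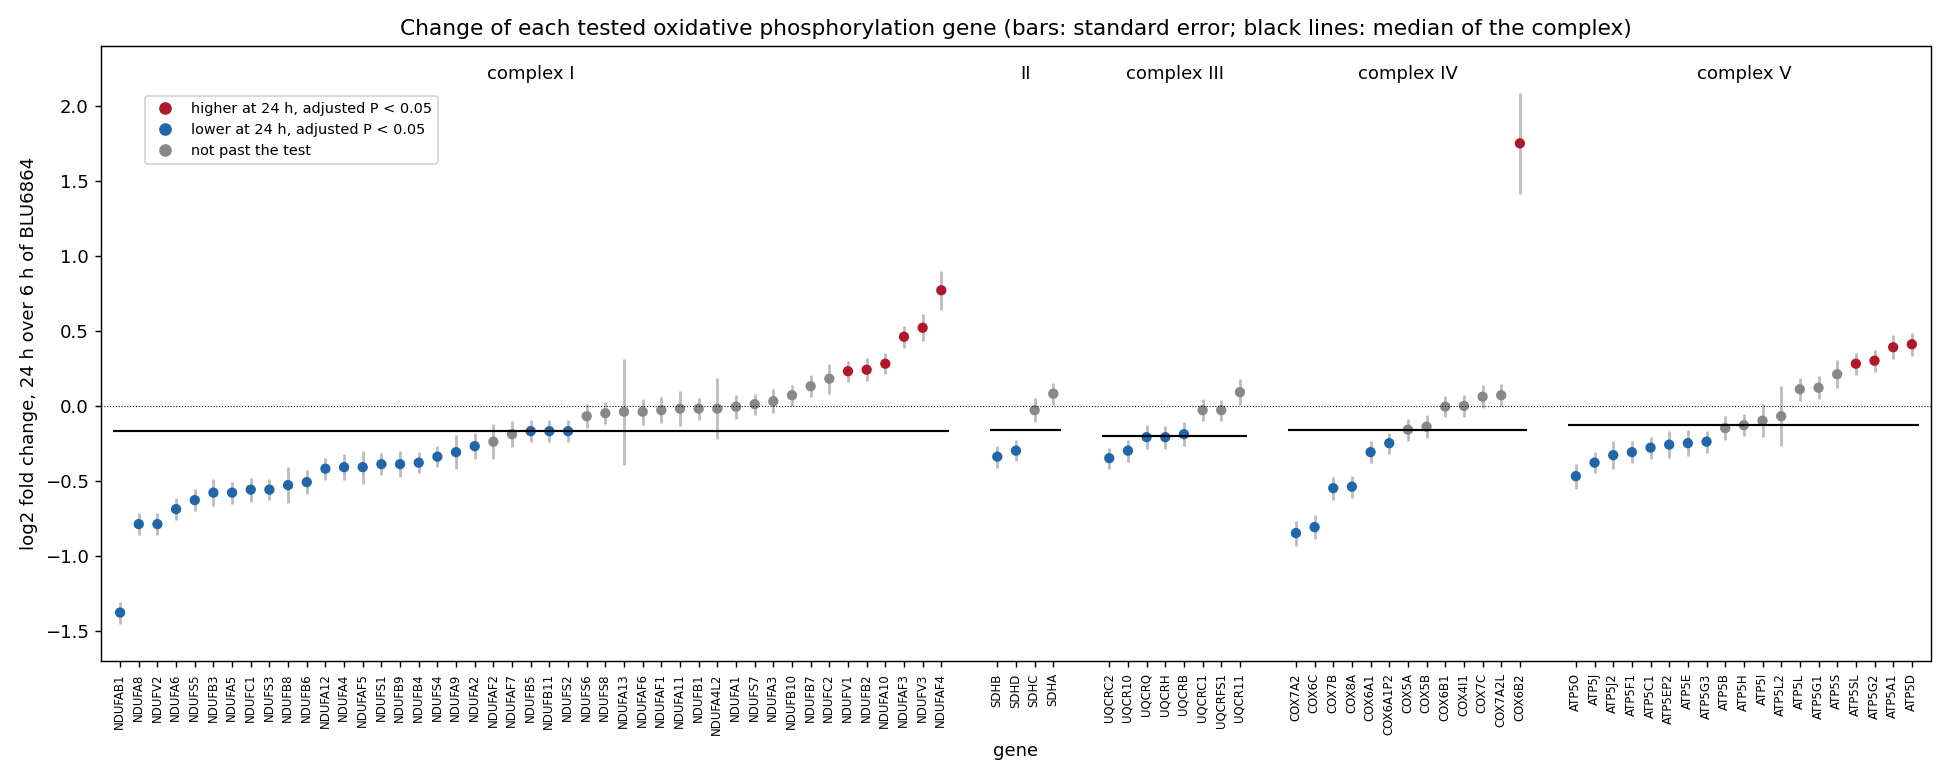
Log2 fold change (24 h over 6 h of BLU6864) of each of the 89 tested genes, sorted within complexes I to V. Points are edgeR estimates, bars are standard errors and black lines are medians, with blue and red for genes past an adjusted P of 0.05. The values run from -1.38 for NDUFAB1 to 1.75 for COX6B2, and the medians lie between -0.20 and -0.13.

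Normalized counts are raw counts scaled to a common library size by the TMM method. Summed over all listed genes of a complex, they gave a related picture for complexes I to IV but not for complex V. Complex I held 88186 and 96007 normalized counts at 6 h but 75261 and 77664 at 24 h, a ratio of 0.830. The ratios were 0.917 for complex II, 0.882 for complex III and 0.844 for complex IV. Complex V was 90844 and 94434 at 6 h and 94600 and 95553 at 24 h, a ratio of 1.03. ATP5A1 alone gave 25660 and 24391 of the complex V counts at 6 h and 32793 and 32615 at 24 h. That rise was larger than the rise of the whole sum, so the other complex V genes together were lower at 24 h. A sum weights each gene by its abundance and length. The members together took 1.09% and 1.18% of all counts at 6 h and 0.994% and 1% at 24 h.

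Complex I, which oxidizes NADH, is by far the largest group here and held 11 of the 15 genes lower by the cutoffs. That is 24.4% of its 45 tested genes, beside 30.8% in complex IV (4 of 13) and 17.7% of all genes. NDUFAB1 (ENSG00000004779, hg19 chromosome 16, 23592323 to 23607677) encodes the mitochondrial acyl carrier protein, which serves fatty acid synthesis as well as complex I. It had 2755 and 3006 normalized counts at 6 h but only 1105 and 1113 at 24 h. The groups did not overlap and were far apart against their spread, with a log2 change of -1.38 ± 0.07 (SE, n = 2 per group, edgeR adjusted P = 4.03e-15). It was the only member with a fall of more than 1 on this scale, and leaving out any 1 library gave -1.44 to -1.31.

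Core subunits of complex I carry the flavin, the iron-sulfur clusters and the path of the electrons. Of the 7 tested, which are all encoded in the nucleus, 4 fell (57.1%) and 1 rose (14.3%), beside 32.6% and 33.0% of all genes. NDUFV2, an iron-sulfur subunit of the NADH-oxidizing arm, had 2862 and 3150 normalized counts at 6 h and 1770 and 1718 at 24 h, a log2 change of -0.79 ± 0.07 (edgeR adjusted P = 3.80e-10), or -0.50 with the trend on GC content and length removed. NDUFV1, its partner in the same arm, was higher at 24 h, from 2128 and 1953 to 2404 and 2373 (0.23 ± 0.07, edgeR adjusted P = 0.00673), although without 6 h replicate 2 its adjusted P was 0.0957, and its value was 0.08 with the trend on GC content and length removed. NDUFS3 fell from 2590 and 2822 to 1843 and 1830 (-0.56, or -0.50 without 6 h replicate 2, at the edge of the cutoff). NDUFS1, the largest core subunit of the arm, fell from 5213 and 4680 to 3752 and 3776. NDUFS7 had a log2 fold change of 0.01 and NDUFS8 of -0.05, neither past the test.

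Accessory subunits surround this core and are needed for its assembly and stability. Of 29 tested, 17 fell (58.6%) and 3 rose (10.3%), beside 32.6% and 33.0% of all genes, with a median log2 fold change of -0.27. NDUFA8 (chromosome 9, 124894745 to 124922098) had 1922 and 2058 normalized counts at 6 h and 1149 and 1158 at 24 h, a log2 change of -0.79 ± 0.07 (edgeR adjusted P = 3.00e-10). NDUFA6 fell from 2661 and 2999 to 1821 and 1693, and NDUFS5 fell from 4389 and 4787 to 2970 and 2957 (-0.63, or -0.39 with the trend removed). In each of these genes the 24 h libraries lay below the 6 h libraries by well over the gap between replicates.

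Smaller falls past the cutoffs were those of NDUFB3 (-0.58), NDUFA5 (-0.58), NDUFC1 (-0.56), NDUFB8 (-0.53) and NDUFB6 (-0.51). NDUFB3 had 1626 and 2111 normalized counts at 6 h and 1265 and 1230 at 24 h, and its 6 h replicates stood apart. Its log2 fold change was -0.38 without 6 h replicate 2 and -0.04 with the trend on GC content and length removed. NDUFA5 and NDUFB6 were at -0.24 and -0.18 with the trend removed. Without 6 h replicate 2, NDUFC1 (-0.48), NDUFB8 (-0.41) and NDUFB6 (-0.38) were no longer past the cutoff of 0.5, although all passed the adjusted test. NDUFB8 is listed under a pair of identifiers, of which 1 held 197 to 316 counts per library and the other none, and its position overlaps HIF1AN and SEC31B, so its level is uncertain. NDUFB3, NDUFC1, NDUFS3 and NDUFB6 also overlap other genes of the table, as do NDUFS1, NDUFB2, NDUFAF2, NDUFAF3, NDUFAF6, NDUFAF7, NDUFA4L2, SDHD, UQCRQ, UQCR11, COX4I1, COX6A1, COX6B2, COX6C, COX8A, COX8C, ATP5A1, ATP5E, ATP5O and ATP5J, and strand was not stated for the counting.

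Among accessory subunits that rose, NDUFV3 had the largest change. This small subunit of the NADH-oxidizing arm had 455 and 483 normalized counts at 6 h and 673 and 672 at 24 h, a log2 change of 0.52 ± 0.09 (edgeR adjusted P = 1.21e-05). NDUFA10 also rose (0.28), in every fit that left out a library. NDUFB2 rose (0.24), but it passed the test in only 2 of 4 such fits, with values of 0.15 to 0.35.

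Assembly factors help to build complex I but are not part of the finished enzyme. Of the 7 in the rule, 2 rose (28.6%) and 1 fell (14.3%), beside 33.0% and 32.6% of all genes. NDUFAF4 (chromosome 6, 97337189 to 97345757) had 140 and 167 normalized counts at 6 h and 253 and 272 at 24 h, a log2 change of 0.77 ± 0.13 (edgeR adjusted P = 1.00e-05). NDUFAF3, which acts with NDUFAF4 in early assembly, rose from 1096 and 1071 to 1432 and 1556 (0.46 ± 0.07, edgeR adjusted P = 4.56e-06). In both, the 24 h libraries were well above the 6 h libraries, and both calls held without any 1 library. NDUFAF5, a methyltransferase that modifies a core subunit, fell (-0.41), and NDUFAF1, NDUFAF2, NDUFAF6 and NDUFAF7 did not pass the test.

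NDUFA4 carries a complex I name but is now counted as a subunit of complex IV. It had 5846 and 7336 normalized counts at 6 h and 4773 and 5136 at 24 h, a log2 change of -0.41 ± 0.09 (edgeR adjusted P = 0.000143). The change was -0.24 without 6 h replicate 2 and -0.07 with the trend on GC content and length removed. Its paralog NDUFA4L2, known as a hypoxia-responsive gene, had 76.7 and 60.4 normalized counts at 6 h and 61.8 and 73.0 at 24 h, and these overlapped (-0.02 ± 0.20, edgeR adjusted P = 0.949).

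**Figure D3:**
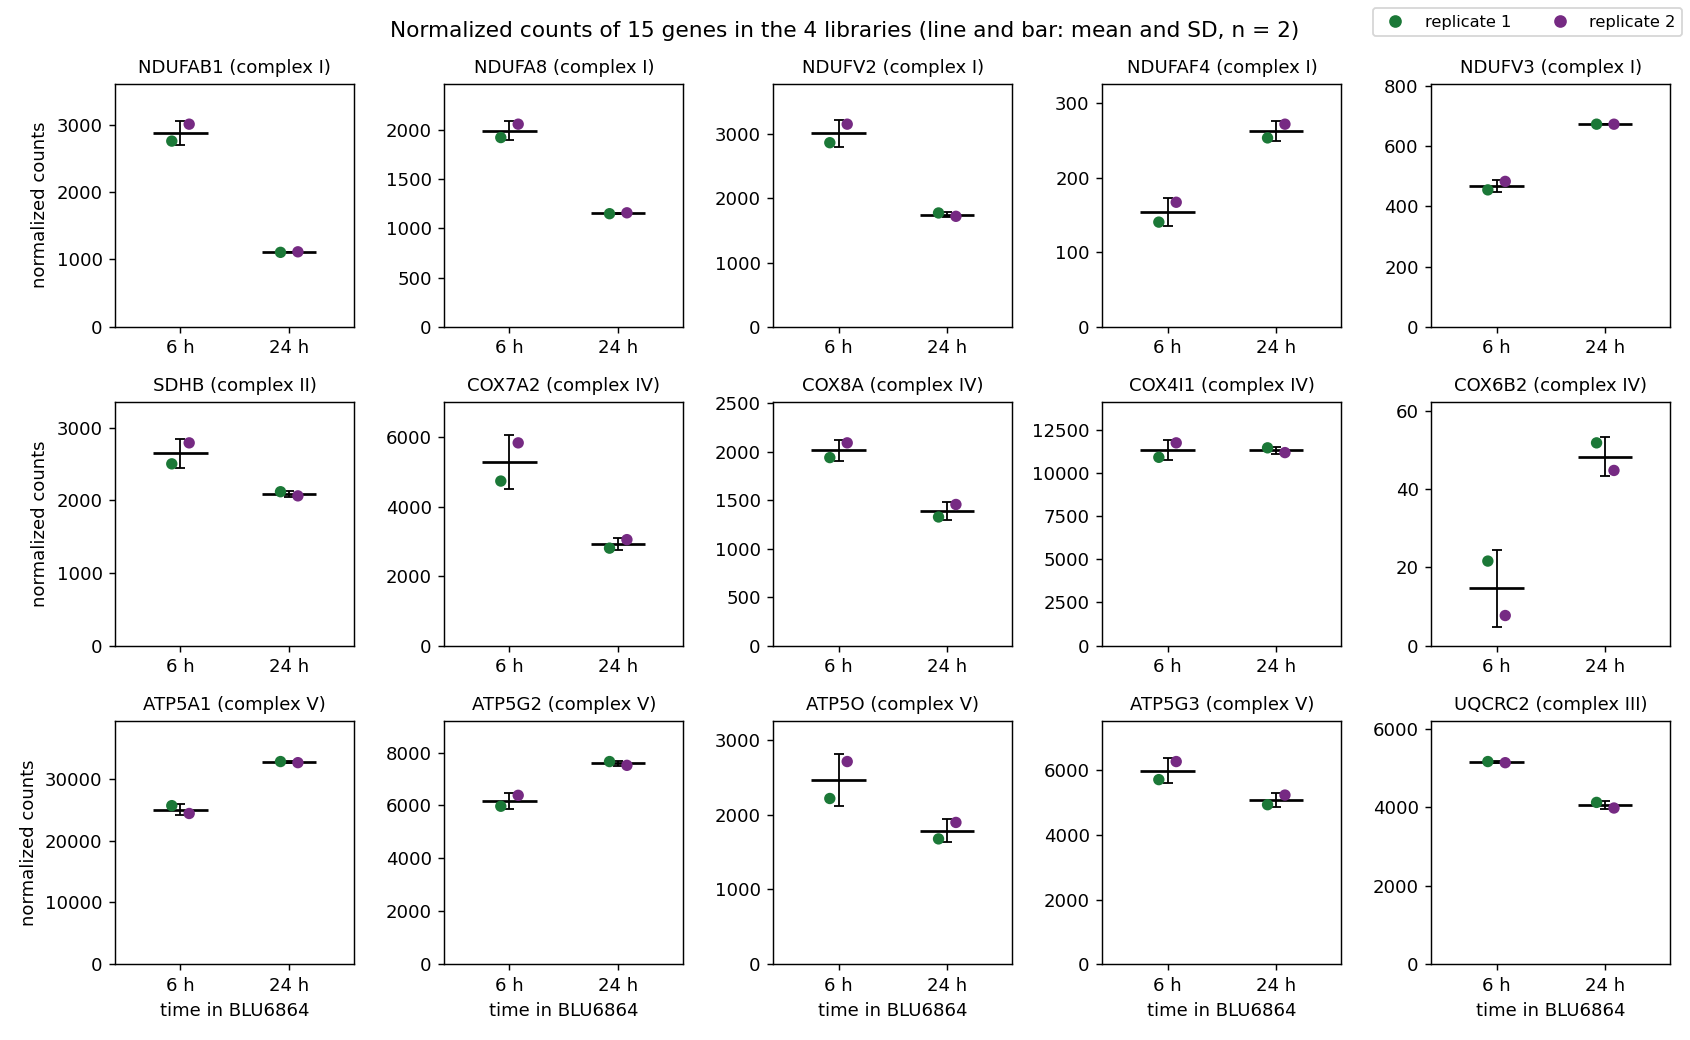
Normalized counts of 15 genes in each of the 4 libraries, on linear axes from 0, with replicate 1 in green and replicate 2 in purple and the mean and SD (n = 2) in black. NDUFAB1 and NDUFA8 lie clearly lower at 24 h, NDUFAF4, NDUFV3 and ATP5A1 lie higher, and the COX4I1 libraries overlap.

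Complex II, succinate dehydrogenase, links the tricarboxylic acid cycle to the electron transport chain. SDHB, its iron-sulfur subunit, had 2503 and 2792 normalized counts at 6 h and 2119 and 2062 at 24 h, a log2 change of -0.34 ± 0.07 (edgeR adjusted P = 0.000199), or -0.12 with the trend on GC content and length removed. SDHD, a membrane anchor, fell from 2543 and 2520 to 1988 and 2116 (-0.30 ± 0.07, edgeR adjusted P = 0.000493), but its value was 0.10 with the trend on GC content and length removed. In both, the libraries of the time points did not overlap. SDHA, the catalytic flavoprotein, had 3281 and 2983 at 6 h and 3436 and 3176 at 24 h, and SDHC, the other anchor, had 2593 and 3023 at 6 h and 2621 and 2883 at 24 h. Neither passed the test, with log2 fold changes of 0.08 and -0.03.

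Complex III, the cytochrome bc1 complex, showed only small changes, and none of its genes passed the cutoffs. UQCRC2, a core protein, fell from 5170 and 5141 normalized counts to 4128 and 3985 (-0.35 ± 0.07, edgeR adjusted P = 0.000112), with closely matched replicates. UQCR10, a small subunit, fell from 2322 and 2523 to 1903 and 2034 (-0.30). With the trend removed they were at -0.13 and -0.11. UQCRH, the hinge protein, had the highest level per transcript length of the complex at 6 h, an RPKM (reads per kilobase of transcript, scaled to library size) of 310, and fell by 0.21 on the log2 scale. The change of UQCRH was -0.10 without 6 h replicate 2, no longer past the test (edgeR adjusted P = 0.287), and 0.11 with the trend on GC content and length removed. UQCRQ and UQCRB, small subunits, fell by 0.21 and 0.19 on the log2 scale, and neither passed the test without 6 h replicate 2. UQCRC1, UQCRFS1 (the Rieske iron-sulfur protein) and UQCR11 did not pass, with log2 fold changes of -0.03, -0.03 and 0.09.

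Complex IV, cytochrome c oxidase, takes its catalytic subunits from mitochondrial DNA and its regulatory subunits from the nucleus. COX7A2 (chromosome 6, 75947391 to 75960039), the widely expressed form of subunit VIIa, had 4732 and 5831 normalized counts at 6 h and 2802 and 3047 at 24 h, a log2 change of -0.85 ± 0.08 (edgeR adjusted P = 1.25e-09). COX6C fell from 8301 and 9787 to 5091 and 5247 (-0.81 ± 0.08, edgeR adjusted P = 1.31e-09). COX7B fell from 3798 and 4321 to 2657 and 2873 (-0.55), and COX8A fell from 1940 and 2092 to 1327 and 1456 (-0.54). All 4 changes stayed negative without any 1 library. Without 6 h replicate 2 the values were -0.69, -0.68, -0.46 and -0.48, so COX7B and COX8A were no longer past the cutoff of 0.5. With the trend on GC content and length removed, the values were -0.54, -0.32, -0.32 and -0.54.

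Other nuclear subunits of complex IV did not follow. COX4I1, the widely expressed form of the largest nuclear subunit, had 10915 and 11753 normalized counts at 6 h and 11465 and 11188 at 24 h, with overlapping libraries and a log2 fold change of -0.00099 ± 0.08. COX6B1 had 3816 and 4070 at 6 h and 3963 and 3892 at 24 h (-0.0059 ± 0.07). The signs of both turned with the scaling used. COX5A, COX5B and COX7C did not pass the test (-0.16, -0.14 and 0.06), nor did COX7A2L (0.07 ± 0.07), a paralog of COX7A2 that helps complexes III and IV to associate. Per transcript length at 6 h, COX4I1 was highest among all members at an RPKM of 568, followed by COX6C at 465 and COX7A2 at 437. At 24 h COX4I1 was at 568, whereas COX6C and COX7A2 were at 266 and 242, below COX7C at 392.

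Several subunits of complex IV have forms restricted to certain tissues. COX4I2, COX6A2 and COX7B2 were listed at 0 in every library, and COX7A1 and COX8C had 1 count in 1 library each. A count of 0 in a library allows up to 3 counts by counting error alone. COX6B2, a form known from testis (chromosome 19, 55860674 to 55866182), had 20 and 8 raw counts at 6 h and 52 and 46 at 24 h. In normalized counts this was 21.6 and 7.68 at 6 h and 51.8 and 44.8 at 24 h, a log2 change of 1.75 ± 0.34 (edgeR adjusted P = 5.57e-05). Its size is poorly fixed, since it was 1.16 without 6 h replicate 2 and 2.63 at the other extreme of leaving out 1 library. The RPKM was 1.18 at 24 h, against 308 for COX6B1, and the position overlaps another gene of the table (CTD-2105E13.6). Among 6 muscle markers, MYH2 and MYH7 were at 0, and the summed level of 3178 to 3719 normalized counts came mostly from TNNT1. COX6A1 fell from 1603 and 1735 normalized counts to 1322 and 1378 (-0.31), and COX6A1P2, a near copy of it listed as protein coding, fell by 0.25 on the log2 scale, a call lost without 6 h replicate 2 (edgeR adjusted P = 0.0532). Reads may be split between them. Their sum changed by a ratio of 0.827.

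Complex V, as chosen by symbol, held 4 of the 11 rises, none of them past the cutoffs. These included ATP5SL (0.28), which was not classed as an F1, Fo or stalk subunit. Among the 15 F1, Fo and stalk subunits alone, 3 rose and 7 fell. The falls in that count leave out ATP5EP2 (-0.26), listed as a copy of another gene. ATP5A1 (chromosome 18, 43664110 to 43684300), the alpha subunit of the catalytic F1 head, had 25660 and 24391 normalized counts at 6 h and 32793 and 32615 at 24 h. The 24 h libraries were higher by far more than the gap between replicates, with a log2 change of 0.39 ± 0.08 (edgeR adjusted P = 0.000157). ATP5B, the beta subunit that alternates with alpha in the head, had 16677 and 15473 at 6 h and 14993 and 14042 at 24 h, a change of -0.15 that did not pass the test. ATP5D, the delta subunit, rose from 1116 and 1286 to 1559 and 1637 (0.41 ± 0.08, edgeR adjusted P = 3.91e-05), or 0.25 with the trend on GC content and length removed. ATP5C1 and ATP5E, the gamma and epsilon subunits, fell (-0.28 and -0.25), but with the trend removed they were at 0.05 and 0.02. ATP5E was at -0.08 without 6 h replicate 2 and no longer passed (edgeR adjusted P = 0.424). Of the 5 F1 subunits, 2 rose, 2 fell and 1 did not pass, which is 40.0% each way, beside 33.0% and 32.6% of all genes.

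The stalk and the membrane part of the synthase, Fo, couple proton flow to rotation. Of 10 tested genes, 5 fell (50.0%) and 1 rose (10.0%), beside 32.6% and 33.0% of all genes. ATP5O, a stalk subunit that joins F1 to Fo, had 2216 and 2710 normalized counts at 6 h and 1676 and 1896 at 24 h (-0.47 ± 0.08, edgeR adjusted P = 2.61e-05), and its value was -0.31 without 6 h replicate 2 and -0.22 with the trend removed. ATP5J, coupling factor 6, fell from 2585 and 2752 to 2026 and 2079 (-0.38), but its value was 0.14 with the trend on GC content and length removed.

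The 3 genes of subunit c encode the same mature protein of the rotor ring and went different ways. ATP5G2 rose from 5971 and 6384 normalized counts at 6 h to 7660 and 7517 at 24 h (0.30 ± 0.07, edgeR adjusted P = 0.000856). ATP5G3 fell from 5712 and 6271 to 4936 and 5234 (-0.24 ± 0.07, edgeR adjusted P = 0.00653), a call lost without 6 h replicate 2 (edgeR adjusted P = 0.0771), and its value was 0.10 with the trend on GC content and length removed. ATP5G1 had 2349 and 2811 at 6 h and 2756 and 2856 at 24 h, which overlapped in range (0.12 ± 0.08, edgeR adjusted P = 0.181). Summed, the 3 genes had 14032 and 15465 normalized counts at 6 h and 15352 and 15607 at 24 h, a ratio of 1.05. The sums overlapped.

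Genes of the same organelle outside the rule give the setting of these values. All 13 subunits encoded in mitochondrial DNA had negative log2 fold changes (median -0.48). Of these, 11 passed the test (84.6%, beside 32.6% of all genes that fell). These transcripts were higher in 6 h replicate 2 than in replicate 1 in 13 of 13 cases, by a median of 0.56. Without that library, 7 of 13 passed, with a median of -0.20, and DESeq2 called 4. MT-ND5, a proton-pumping subunit of complex I, had 18354 and 26671 normalized counts at 6 h and 13779 and 14199 at 24 h (-0.69 ± 0.11, edgeR adjusted P = 3.80e-06), and MT-ATP8, a subunit of complex V, had 3015 and 4484 at 6 h and 2139 and 2625 at 24 h (-0.66). In both genes the gap between the 6 h replicates was about as large as the gap between the means of the time points. With the trend on GC content and length removed, the median over the 13 was -0.16, and MT-ATP8 was at 0.10.

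Electron carriers and subunits with other names were lower, with 9 of 10 past the test (90%, beside 32.6% of all genes that fell). Their median was -0.36, and -0.25 without 6 h replicate 2. With the trend removed the median was -0.15. Among them, COQ10A, which binds ubiquinone, fell from 491 and 511 normalized counts to 318 and 363 (-0.56), and ETFA, which carries electrons from fatty acid oxidation, fell from 5340 and 5664 to 3745 and 3766 (-0.55). Assembly factors outside the rule were mixed, with 15 of 40 lower and 13 higher (37.5% and 32.5%, near the 32.6% and 33.0% of all genes, median -0.03). COX17, a copper chaperone for complex IV, fell from 542 and 661 to 329 and 307 (-0.92, or -0.60 with the trend removed), while COA7, another complex IV assembly factor, rose from 240 and 229 to 705 and 607 (1.49). Tricarboxylic acid cycle and pyruvate dehydrogenase genes had 5 of 18 higher and 5 lower, 27.8% each way, below the 33.0% and 32.6% of all genes. PDHX, a component of pyruvate dehydrogenase, fell from 2134 and 1962 to 1061 and 1051 (-0.95), and IDH2, the mitochondrial isocitrate dehydrogenase, rose from 2333 and 2013 to 2947 and 3233 (0.51).

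Regulators of mitochondrial gene expression had 10 of 23 tested higher (43.5%, beside 33.0% of all genes) and 2 lower (8.70%, beside 32.6%). Their median was 0.10, and 0.27 with the trend on GC content and length removed. PPRC1, a coactivator related to PGC-1 alpha, rose from 279 and 277 normalized counts at 6 h to 1200 and 1211 at 24 h (2.12 ± 0.09, edgeR adjusted P = 2.67e-17). ESRRG, a nuclear receptor that binds promoters of respiratory genes, rose from 20.5 and 20.2 to 108 and 123 (2.50 ± 0.23, edgeR adjusted P = 3.34e-10). PPARGC1B, the PGC-1 beta coactivator, rose from 15.1 and 24.0 to 69.7 and 83.7 (1.95), and C10orf2, the mitochondrial helicase, rose from 145 and 142 to 544 and 515 (1.88). NRF1 (0.07), YY1 (0.09) and TFAM (-0.11), the factor that packages mitochondrial DNA, did not pass the test, and GABPA, an ETS factor of respiratory promoters, fell (-0.28). In the same list GABPB1 and GABPB2 rose (0.39 and 0.44). ESRRA did not pass the test (0.07), with an RPKM of 9.90 at 24 h against 0.847 for ESRRG. The 6 h libraries of GABPA were 1391 and 1055 and the 24 h libraries 1018 and 999, so the 6 h replicates differed by more than the change, and its value was -0.01 with the trend removed. PPARGC1A was too low to be tested, with at most 14.6 normalized counts. PPARGC1B, C10orf2, NRF1, YY1, TFAM, GABPA, GABPB1, GABPB2, ESRRA and PPARGC1A were chosen after their values were seen.

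**Figure D4:**
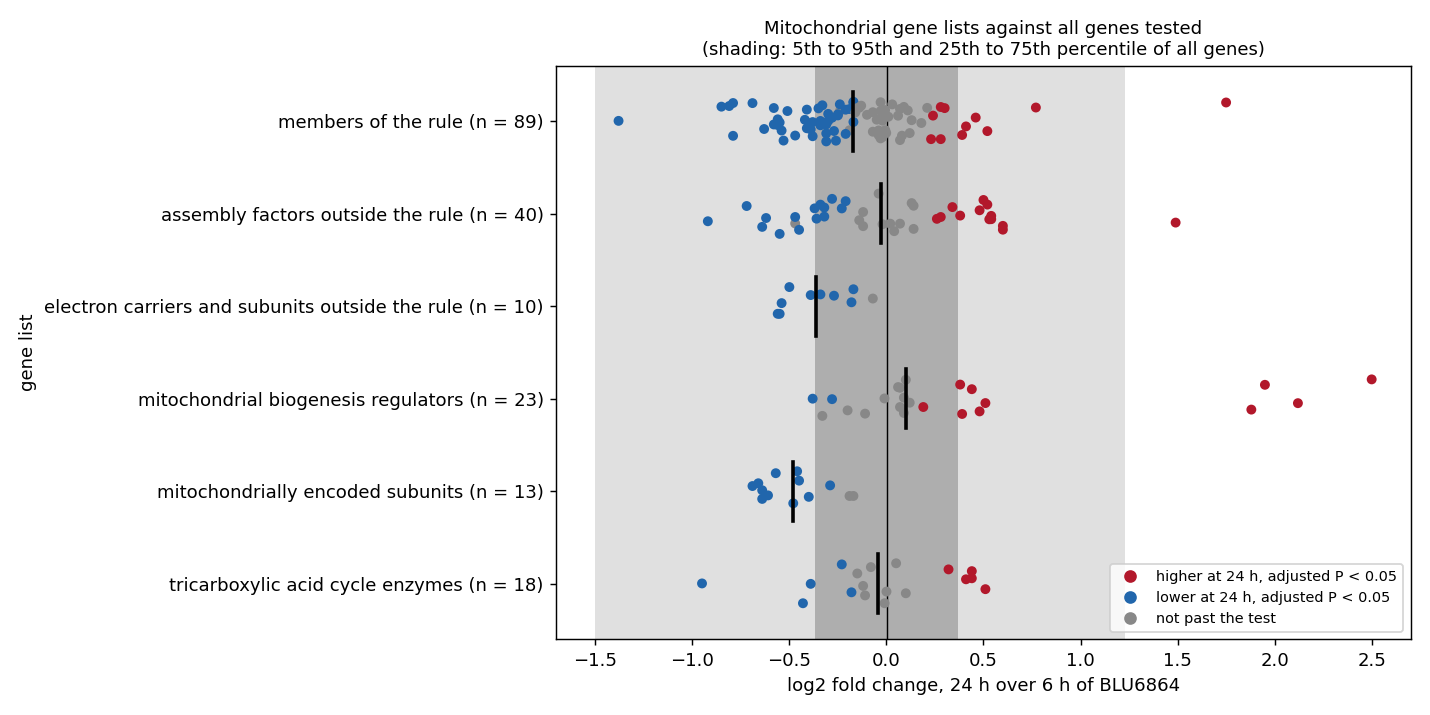
Log2 fold change (24 h over 6 h) of the 89 tested members and of 5 lists of mitochondrial genes outside the rule, each point a gene and each black bar a median. Light and dark shading span the 5th to 95th and 25th to 75th percentiles of all 12876 genes. The medians run from -0.48 for mitochondrially encoded subunits to 0.10 for biogenesis regulators, and 4 regulators lie between 1.88 and 2.50.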

How the data were processed

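Total RNA of 4 TPC1 samples was made into TruSeq RNA libraries. The labels give single-end reads and the methods paired-end reads. The submitters' processing notes name STAR 2.3, DESeq2 and the hg19 build, and the counting program and its use of strand were not given in the sources used here. The authors deposited a raw count of reads per gene for each of the 4 libraries, and a normalized signal, the count divided by 1 size factor per library. Columns of the authors' own DESeq2 comparison were not used, and 0 columns of sample values were left unused.

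The test across genes used edgeR 4.0.16 (R 4.3.3) on the raw counts after filterByExpr (12876 genes kept) and TMM normalization, with time as the single factor in the quasi-likelihood test and Benjamini-Hochberg adjustment over all genes. The SE of each log2 change was obtained as its size over the root of F. Normalized counts are counts scaled by TMM to the average size of the 4 libraries. The script was tested on simulated data. With 2 libraries per time, the biological coefficient of variation was 0.0521. Nothing states that libraries came from separate cultures, so P values measure only the spread between these libraries, which may be technical.

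RPKM values and the trend on GC content and length used the canonical transcript of GENCODE 44, whose long annotated ends can understate levels. Gene positions are those of the table (hg19), and promoters are those of RefSeq (GRCh38.p14), matched by Ensembl identifier and symbol, with the start nearest to the canonical transcript. Because 4 symbols are listed under a pair of identifiers each, the 101 genes hold 97 symbols, and 49 of the 101 overlap another gene of the table. Figures used matplotlib 3.10.9 (Python 3.11.15).

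The cutoff of the methods, a log2 change under -0.5 with P under 0.01, was mirrored for rises. Members named were those past it, the 2 largest rises and falls in each complex, the highest per length in each complex, the tissue-restricted isoforms with their common forms, the subunit c genes and the SDH genes, and the 2 largest changes past the test in each further list. Other genes named were chosen after their values were seen. The members and lists were chosen with earlier results of these data known. Alternatives were DESeq2 1.42.0, other scalings and filters, a replicate block, a stricter threshold, each library left out, subunits only, the trend removed and, added after seeing the data, members with no overlapping gene.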

Additional observations from a re-analysis of the deposited data

How the results depend on the processing

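The counts of 44 lower and 11 higher members stayed within 1.5 times under the other scalings, filters, threshold, block, DESeq2 and each library left out, with 33 to 50 lower and 10 to 13 higher, and no called member changed sign in another edgeR fit or in DESeq2, which kept 38 of the 44 and all 11. With the replicate block the counts were 48 lower and 13 higher. Nothing states that the numbers pair the libraries, and the correlation of same-numbered deviations was 0.0844. The background moved as well, from 25.7% to 35.3% lower and from 26.2% to 35.1% higher. Library size alone moved the median of all genes to -0.040, with 50 members lower and 11 higher, and upper quartile scaling moved it to 0.033, with 37 lower and 12 higher. Leaving out 1 library at a time gave medians of -0.24 to -0.08 for complex IV and -0.18 to -0.08 for complex V, and 8 to 18 members lower by the cutoffs and a complex III median of -0.27 to -0.11, the extremes being without 6 h replicate 1 (18 and -0.27) and without 6 h replicate 2 (8 and -0.11). Removing the trend with GC content and with transcript length gave medians of -0.0046 for all members, -0.08 for complex I, 0.04 for complex II, -0.11 for complex III, -0.04 for complex IV and 0.15 for complex V, and turned 10 of the 44 lower members, among them ATP5G3 (0.10), ATP5J (0.14), SDHD (0.10) and UQCRH (0.11), with no call counts since no test was run on it. Keeping only the 48 tested members with no overlapping gene left 23 lower and 7 higher (47.9% and 14.6%) and medians of -0.03 for complex II and -0.01 for complex V. The causes were not tested. Genes near 0 changed sign, namely COX4I1 (0.03 with upper quartile scaling, 0.0006 with no filter, 0.0022 with at least 10 counts in every library), COX6B1 (0.02) and NDUFA4L2 (0.01) with upper quartile scaling, and, leaving out 1 library at a time, COX4I1 (-0.05 to 0.05), COX6B1 (-0.05 to 0.04), NDUFA4L2 (-0.18 to 0.16), SDHC (-0.14 to 0.09) and ATP5G1 (-0.0026 to 0.26). A change of a few percent is not detectable with these 2 libraries per time, since the standard errors were about 0.07 on the log2 scale for well-counted members.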
